A study of Homo sapiens with 4 samples.

Results

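Peaks on long noncoding RNA (lncRNA) genes were taken from the peak lists of an NSUN2 RNA immunoprecipitation sequencing (RIP-seq) experiment. A member was a peak that the authors' annotation placed in an exon or intron of a gene with a noncoding biotype, and lncRNA was the 1 such biotype present. They numbered 11027 of 143889 peaks. The lactate list gave 3372 of its 48104, and the ddH2O list 7655 of its 95785. In the table that joins the lists, 9393 of 116484 merged peaks overlapped a member by 1 base or more. RNA bound to NSUN2 was pulled down with an anti-NSUN2 antibody from wild-type PANC-1 cells, an established line of pancreatic ductal adenocarcinoma. The cells had received 30 mM sodium lactate or its vehicle ddH2O for 24 h, and RNA taken before the pull-down served as the input. Each condition had 1 IP library and 1 input library, 4 libraries in all, so no difference between conditions has a replicate check. PANC-1 is a single cell line, and no pull-down with an unrelated antibody was analysed here.

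NSUN2 is a methyltransferase that places 5-methylcytosine (m5C) on transfer RNAs, messenger RNAs and some noncoding RNAs. LncRNAs are transcripts without a long reading frame that act in the nucleus, as MALAT1 and NEAT1 do in nuclear bodies, or in the cytoplasm, and several of them host microRNAs or small nucleolar RNAs (snoRNAs) in their introns. Many lie antisense to a protein-coding gene or start next to its promoter, so that reads of the pair share a place in the genome. The library kit was not stated to keep the strand, and reads of such overlapping genes cannot be told apart here.

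The start of a lncRNA gene is the place where the called peaks could be read against sequence. Of the lncRNA genes with a peak, 1085 had a RefSeq window of 300 bases (GRCh38.p14, 250 before and 50 after the start), and 44 of these genes had a peak of their own on it, 7 of them with lactate and 42 with ddH2O. The windows shown are those of the snoRNA hosts SNHG19 and SNHG8, of the cytoplasmic lncRNA OIP5-AS1, and of THBS2-AS1 and KIRREL1-IT1, which had start peaks in both lists at higher folds than the others of that kind. They were chosen after their values were seen. Capitals mark the bases under a called peak, and all sequences run 5′ to 3′ along the gene.
SNHG19 start window, chr16:2155309-2155608, minus strand: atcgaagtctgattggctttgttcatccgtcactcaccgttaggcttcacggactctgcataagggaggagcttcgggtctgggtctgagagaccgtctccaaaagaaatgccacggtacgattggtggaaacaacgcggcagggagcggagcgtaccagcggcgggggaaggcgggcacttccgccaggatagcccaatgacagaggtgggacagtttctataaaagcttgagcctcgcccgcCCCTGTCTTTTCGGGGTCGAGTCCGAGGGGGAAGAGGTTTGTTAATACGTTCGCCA
SNHG8 start window, chr4:118278512-118278811, plus strand: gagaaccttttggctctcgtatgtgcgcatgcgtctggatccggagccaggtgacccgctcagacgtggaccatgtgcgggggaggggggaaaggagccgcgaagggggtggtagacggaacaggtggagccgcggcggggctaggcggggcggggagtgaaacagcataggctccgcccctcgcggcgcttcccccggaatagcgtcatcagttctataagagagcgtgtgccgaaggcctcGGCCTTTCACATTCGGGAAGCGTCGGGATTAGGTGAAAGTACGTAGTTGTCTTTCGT
OIP5-AS1 start window, chr15:41283740-41284039, plus strand: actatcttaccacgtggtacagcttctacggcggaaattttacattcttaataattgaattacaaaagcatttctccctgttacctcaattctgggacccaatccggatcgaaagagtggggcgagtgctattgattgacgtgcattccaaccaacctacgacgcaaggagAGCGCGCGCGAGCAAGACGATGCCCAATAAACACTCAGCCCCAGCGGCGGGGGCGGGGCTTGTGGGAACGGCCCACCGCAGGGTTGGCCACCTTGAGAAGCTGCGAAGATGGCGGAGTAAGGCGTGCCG
THBS2-AS1 start window, chr6:169212962-169213261, plus strand: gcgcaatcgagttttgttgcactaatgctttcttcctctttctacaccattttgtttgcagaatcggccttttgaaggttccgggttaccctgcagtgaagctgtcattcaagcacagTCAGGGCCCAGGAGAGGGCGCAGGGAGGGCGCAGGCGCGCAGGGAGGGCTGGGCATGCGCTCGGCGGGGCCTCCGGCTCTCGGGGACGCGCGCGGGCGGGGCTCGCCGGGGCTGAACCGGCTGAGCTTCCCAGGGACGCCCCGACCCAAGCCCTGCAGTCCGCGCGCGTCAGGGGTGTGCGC
KIRREL1-IT1 start window, chr1:158025300-158025599, plus strand: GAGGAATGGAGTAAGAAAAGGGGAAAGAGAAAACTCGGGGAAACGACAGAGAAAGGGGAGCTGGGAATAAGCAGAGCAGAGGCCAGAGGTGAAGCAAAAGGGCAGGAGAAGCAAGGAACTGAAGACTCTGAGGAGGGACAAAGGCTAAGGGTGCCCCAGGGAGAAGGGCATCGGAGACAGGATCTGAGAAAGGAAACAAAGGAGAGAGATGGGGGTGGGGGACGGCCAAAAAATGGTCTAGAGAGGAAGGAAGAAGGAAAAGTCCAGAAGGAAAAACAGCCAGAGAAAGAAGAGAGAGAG

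In SNHG19, SNHG8 and OIP5-AS1 the peak covered all 50 bases after the start and reached 6, 7 and 79 bases upstream of it. In KIRREL1-IT1 it covered the whole window, 250 bases of which precede the start given by RefSeq. The SNHG19 peak in the ddH2O list had a fold over input of 15.0, and that of SNHG8 had 8.02. THBS2-AS1 had folds of 5.31 with lactate and 9.71 with ddH2O, and KIRREL1-IT1 had 7.52 and 8.49. The letters CNGGG, which have been described at m5C sites of NSUN2, stood in the last 50 bases of 28.3% of the 46 windows under a peak of their own gene (13 windows, 95% Wilson interval 17.3% to 42.5%, sense strand). The share was 36.9% over 1278 windows of genes with a lncRNA peak and 34.1% over all 35116 windows, both inside that interval.

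Of 1562 microRNA hairpins in the RefSeq table, 1 lay under a lncRNA peak. It was MIR940, an exonic hairpin of MIR3677HG, where a peak of the lactate list at chr16:2271604-2271803 shared 57 bases with it at a fold of 2.21. The peak ended before the mature arm, and its window held 4 lactate and 1 ddH2O reads. The MIR31 hairpin of MIR31HG lay 407 bases from the nearest of that gene's 50 peaks. The mature microRNAs of these hosts are shown with the seed, bases 2 to 8, in capitals.
hsa-miR-940, chr16:2271806-2271826, plus strand: aAGGCAGGgcccccgcucccc
hsa-miR-31-5p, chr9:21512158-21512178, minus strand: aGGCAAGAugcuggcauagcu

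LncRNA peaks made up 7.01% of the lactate list (95% Wilson interval 6.79% to 7.24%) and 7.99% of the ddH2O list (7.82% to 8.17%). With the ddH2O list cut by score to the length of the lactate list, its share was 6.92% (6.70% to 7.15%), so that the order turned and the intervals overlapped. These and all later intervals cover counting error only. The lactate list held peaks on 1641 lncRNA genes and the ddH2O list on 3070, and 1231 genes were in both. A gene had 1 peak only in 66.7% of the lactate genes and 62.6% of the ddH2O genes. On chromosome 21 the members were 12.6% of all peaks, and on chromosome 20 they were 5.36%. Of 7 markers of ductal cells and PANC-1, 4 had a peak with lactate and 6 with ddH2O. The keratins KRT8, KRT18, KRT19 and KRT7 stood in both lists, EPCAM and VIM in the ddH2O list, and SOX9 in neither. Of 7 markers of other cells CD68 had a peak in both lists, COL1A1 in the lactate list and PTPRC in the ddH2O list.

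By name, antisense genes gave the most peaks, 1076 with lactate and 2521 with ddH2O. Unnamed genes, listed by an Ensembl identifier, gave 928 and 2215, and LINC genes gave 398 and 956. Divergent transcripts, which start beside a coding promoter, gave 317 and 799. The other named genes gave 379 and 648, sense overlapping genes 123 and 207, microRNA hosts named MIR...HG 112 and 231, and snoRNA hosts 39 and 78. Antisense, unnamed and LINC genes led in both lists.

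Most members lay in introns. Exons held 35.6% of lncRNA peaks with lactate (34.0% to 37.2%) and 36.4% with ddH2O (35.3% to 37.5%), against 38.5% and 38.8% of protein-coding peaks outside introns. Pseudogene peaks, at 55.2% and 60.3% in exons, lay above both. Within the members, the exon share was 23.9% and 26.3% for LINC genes and 68.3% and 64.3% for sense overlapping genes, whose intervals did not overlap in either list.

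The median fold over input of lncRNA peaks was 3.24 with lactate and 3.03 with ddH2O, and to these 3 digits the same for protein-coding peaks. In exons it was 3.24 and 3.03, against 3.64 and 3.49 for protein-coding peaks outside introns. The highest folds were 41.0 with lactate and 50.1 with ddH2O, both in introns of PVT1, a lncRNA next to the MYC gene. The next in the lactate list were intron peaks of MIR4435-2HG at 21.8, MIR31HG at 21.5 and, inside the span of KRT80, LINC00592 at 21.0, and an exon peak of ENSG00000267904 inside the span of SMIM7 at 20.8. In the ddH2O list they were exon peaks of ENSG00000205041 inside AKT2 at 44.9 and of FBXL19-AS1 at 39.8. MALAT1, which had the most reads, had folds of 1.56 and 1.19, below the median.

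A q-value below 0.05 was given to 35.6% of lncRNA peaks with lactate and 42.0% with ddH2O. For protein-coding peaks the shares were 44.6% and 50.9%, and the intervals did not overlap. The gap lay mostly outside introns: lncRNA exon peaks passed in 43.9% and 51.7%, and protein-coding peaks outside introns in 59.8% and 65.3%. Intron peaks passed in 31.1% and 36.5% on lncRNA genes and in 35.1% and 41.8% on protein-coding genes. Many members rested on few reads: of the merged lncRNA peaks listed in the ddH2O IP, 44.1% had 5 reads or fewer in that IP's window of 2000 bases, against 38.0% of all merged peaks listed there. With lactate the shares were 28.6% and 24.1%.

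Overlap with coding genes differed by class. Of the lncRNA peaks, 29.6% with lactate (28.1% to 31.1%) and 28.2% with ddH2O (27.2% to 29.2%) lay inside the RefSeq span of a protein-coding gene. The share over both lists was 73.9% for sense overlapping genes, 45.3% for antisense genes and 27.9% for unnamed genes. It was 12.8% for microRNA hosts, 9.77% for divergent transcripts and 8.12% for LINC genes. Exon peaks lay in such a span more often (43.1% and 41.8%) than intron peaks (22.1% and 20.4%).

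The windows with the most reads lay there most often. Ranked by reads, the share inside a coding span was 52.0% for windows 1 to 25 (33.5% to 70.0%) and 53.3% for windows 26 to 100 (42.2% to 64.2%). It was 32.8% for windows 101 to 500 (28.3% to 37.5%) and 27.0% for windows under 20 reads (26.0% to 28.0%). Of the 10 genes with the read-richest windows, 5 lay there. ENSG00000269570 lay in ZFP91 (1320 lactate and 2458 ddH2O reads) and ENSG00000264772 in EIF4A1, a translation initiation factor (716 and 1952 reads). ENSG00000289100 lay in TAPBP and RGL2 (1079 and 1505 reads) and ENSG00000271980 in CCT5, a chaperonin subunit (414 and 1107 reads), while MVP-DT reached into MAZ (462 and 708 reads). Whether these reads came from the lncRNA or the coding gene cannot be told apart.

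Members were shared between the lists less often than coding peaks. With an overlap of 1 base or more, 48.5% of lactate lncRNA peaks met a ddH2O peak (46.8% to 50.2%), and 21.4% of ddH2O lncRNA peaks met a lactate peak (20.5% to 22.3%). The shares of protein-coding peaks were 58.5% and 29.9%, with intervals that did not meet those of lncRNA peaks. Exon peaks of lncRNA genes were shared in 58.0% and 26.1%, against 76.3% and 38.9% of protein-coding peaks outside introns. In introns the shares were 43.2% and 18.7% against 47.3% and 24.1%. Among the classes, microRNA hosts had 65.2% of their lactate peaks shared (56.0% to 73.4%) and unnamed genes 43.0% (39.8% to 46.2%). The ddH2O list was the longer, and with as many ddH2O peaks as lactate peaks, taken by the authors' score, 37.7% and 38.2% of lncRNA peaks were shared.

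The reads behind the merged peaks were computed back from the deposited normalized densities. The windows of all merged peaks summed to 9756046 lactate and 9553841 ddH2O reads, but the windows of the mitochondrial ribosomal RNA MT-RNR2 and of MALAT1 held 80.1% and 63.0% of them. Without those windows the sums were 1945000 and 3536821. A merged lncRNA peak had a median of 3 lactate and 5 ddH2O reads, and 2345 of 9393 (24.97%) had 20 reads or more over both IP windows, against 32.6% of all merged peaks. Of the lncRNA windows, 43.4% overlapped a neighbour and so shared reads with it. Among the 2345 with 20 reads or more this was more frequent, and 679 overlapped none. The intervals of window shares below take windows as independent and so are too narrow.

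A member was called higher or lower with lactate where the ratio of the authors' normalized densities passed 2-fold, among windows with 20 reads or more. This ratio compares the 2 IP libraries without their inputs. A change in NSUN2 binding and a change in the amount of the RNA therefore cannot be told apart by it. Of 2345 lncRNA windows, 250 were higher (10.7%, interval 9.48% to 12.0%), against 7.65% of all merged peaks. Another 483 were lower (20.6%, interval 19.01% to 22.3%), against 18.6% of all. The split followed the list in which a window was called. Of 865 called in the ddH2O list alone, 354 were lower (40.9%) and 24 higher (2.77%). Of 287 called in the lactate list alone, 99 were higher (34.5%) and 10 lower (3.48%). The 1193 called in both lists gave 127 higher (10.6%) and 119 lower (9.97%). Of 1034 genes with a window of that depth, 150 had a higher window and 327 a lower window, and 31 of these had both. Gene counts here and below were not set against genes of all biotypes, so they do not show a trait of lncRNA genes. The direction of the split depended on the scaling. Higher windows were 34.1% of those past 2-fold under the authors' normalization, which takes a straight line in the mean log2 density off the log2 ratio. They were 68.0% with reads scaled by the sums without MT-RNR2 and MALAT1, where 511 were higher (21.8%, against 17.0% of all) and 241 lower (10.3%, against 8.77% of all). With the sums of all windows, a scaling added after the data were seen, they were 14.4%, with 136 higher (5.80%, against 3.94% of all) and 811 lower (34.6%, against 37.9% of all). Over all merged peaks the higher part of those past 2-fold was 29.2%, 66.0% and 9.41% in the same order. The median log2 ratio of the 2345 lncRNA windows was -0.16, 0.24 and -0.65 under these scalings, and -0.20, 0.13 and -0.77 over all merged peaks. Under all 3 scalings, 136 windows on 95 genes were higher and 241 windows on 176 genes were lower. These are the counts of the strictest scaling in each direction, so the other scalings add no check to them.

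Exon windows of lncRNA genes were higher with lactate in a larger share than protein-coding windows outside introns. Of 1152 lncRNA exon windows, 7.81% were higher (6.40% to 9.51%), against 2.27% of 17725 protein-coding windows outside introns (2.06% to 2.50%). The intervals of these shares did not overlap either with the sums without MT-RNR2 and MALAT1 (16.1% against 6.83%) or with the sums of all windows (4.17% against 0.807%). Intron windows of lncRNA and protein-coding genes were higher in 13.4% and 13.0%, and lower in 18.1% and 17.3%. The lower share of exon windows was 23.2% against 19.3%, 12.0% against 9.37% without MT-RNR2 and MALAT1 in the sums, and 40.7% against 48.1% with all windows, where the order turned. The exon windows of lncRNA genes held fewer reads, so the shares were also set side by side by reads. At 20 to 49 reads the higher share was 10.4% against 4.24%, and at 50 reads or more it was 4.51% against 1.24%. The lower share turned between these ranges, at 28.2% (24.9% to 31.8%) against 33.2% (32.0% to 34.4%) and at 16.9% (13.9% to 20.4%) against 11.9% (11.4% to 12.5%). Without MT-RNR2 and MALAT1 in the sums it was 14.6% against 15.5% and 8.63% against 6.17%, with intervals that overlapped in both ranges. Against protein-coding peaks annotated as exon alone, under the authors' normalization, the lower share was 23.2% against 22.7% over all windows of 20 reads or more, and 16.9% against 15.0% at 50 reads or more, again with overlapping intervals. At 20 to 49 reads it was 28.2% (24.9% to 31.8%) against 34.7% (33.1% to 36.3%), so that the order turned and the intervals did not overlap. LncRNA exon windows inside a coding span were higher in 8.38% and those outside in 7.37%, and in 19.4% and 13.7% without MT-RNR2 and MALAT1 in the sums. These windows are not replicates of the treatment, and the comparison rests on 1 IP library per condition.

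**Figure D1:**
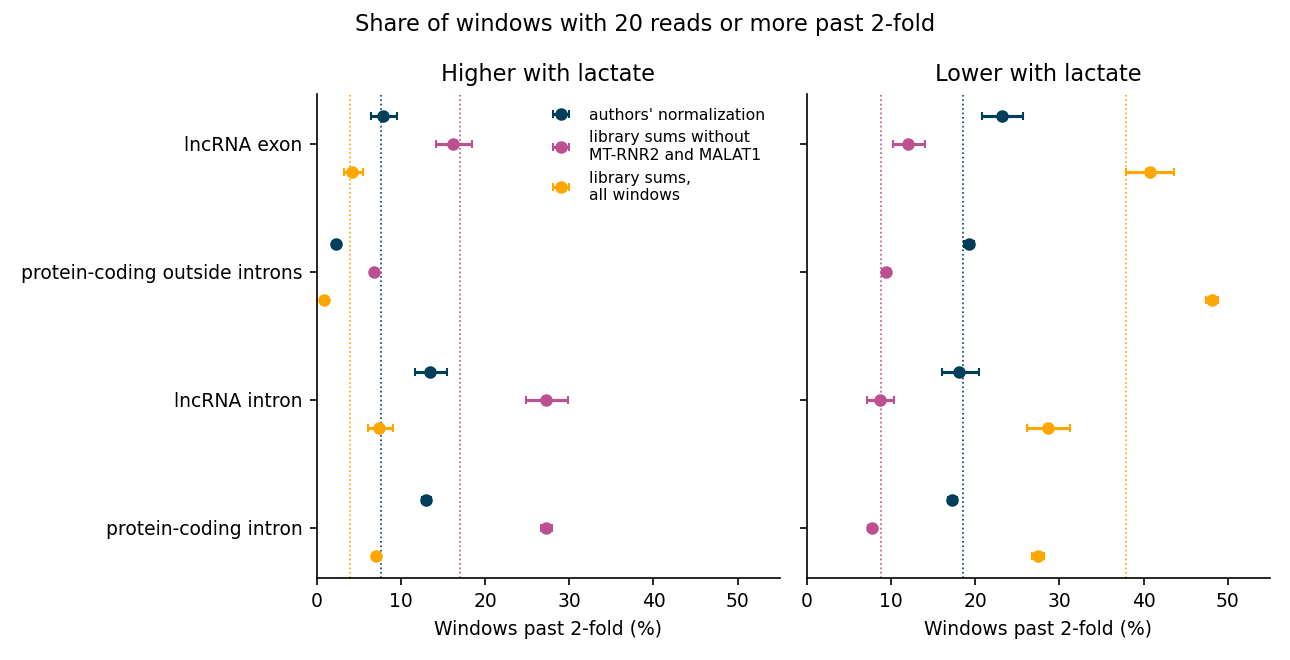
Percent of windows with 20 reads or more that were past 2-fold (x axis), higher with lactate on the left and lower on the right, for lncRNA exons, protein-coding regions outside introns and both kinds of introns (y axis) under 3 scalings. Bars are 95% Wilson intervals and dotted lines are the shares over all merged peaks; on the left lncRNA exons lie above protein-coding regions outside introns in each scaling, while both kinds of introns lie together.

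Under the authors' normalization, the higher share by class ran from 2.44% of 41 windows of snoRNA hosts (0.432% to 12.6%) to 15.1% of 86 windows of microRNA hosts (9.05% to 24.2%). Sense overlapping genes had 15.0% and the other named genes 13.6%, against 7.65% of all merged peaks. The lower share was highest for divergent transcripts, at 26.8% of 254 windows (21.7% to 32.5%), and for antisense genes, at 22.3% of 806 (19.6% to 25.3%). LINC genes had 15.8% (11.8% to 20.9%). Over all merged peaks the lower share was 18.6%. Without MT-RNR2 and MALAT1 in the sums, snoRNA hosts had the highest lower share (17.1%), against 8.77% of all merged peaks. The intervals of divergent transcripts (13.0%, 9.40% to 17.7%) and LINC genes (6.48%, 4.03% to 10.3%) then overlapped. The 8 classes were compared without a test.

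Among nuclear body lncRNAs, all 4 windows were higher with lactate under the authors' normalization, against 7.65% of all merged peaks. MALAT1 (ENSG00000251562), the abundant lncRNA of nuclear speckles, had its peak in an exon at chr11:65499535-65499832 (GRCh38). Its window held 129762 lactate and 89873 ddH2O reads, 58.9% and 37.6% of all reads in lncRNA windows. The log2 ratio was 2.98 (counting interval 2.97 to 2.99), 1.39 with the sums without MT-RNR2 and MALAT1, and 0.50 with the sums of all windows, which was the one of these under 2-fold. No other lncRNA window held more than 2458 reads in either IP, and before any scaling the MALAT1 ratio was 0.53. NEAT1 (ENSG00000245532), the scaffold of paraspeckles, had 3 exon windows with 117 and 51, 679 and 466, and 29 and 8 lactate and ddH2O reads. Each held more lactate than ddH2O reads before any scaling, with log2 ratios of 1.87 (1.40 to 2.39), 1.71 (1.54 to 1.89) and 2.05 (1.00 to 3.51). With the sums of all windows they were 1.15, 0.51 and 1.71, so that the window with the most reads was then under 2-fold.

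Imprinting and dosage lncRNAs gave 13 higher (21.0%) and 2 lower (3.23%) of 62 windows, against 7.65% and 18.6% of all merged peaks. They gave 20 (32.3%) and 1 (1.61%) without MT-RNR2 and MALAT1 in the sums, against 17.0% and 8.77%. With all windows they gave 7 (11.3%) and 13 (21.0%), against 3.94% and 37.9%. KCNQ1OT1 (ENSG00000269821), the imprinted antisense transcript inside KCNQ1, made up 8 of the 13. All its 31 called peaks were annotated as exon, which does not show whether the RNA was spliced. Its 12 windows of 20 reads or more had a median log2 ratio of 1.67, with 8 higher and 0 lower. Under the other scalings 10 and 7 were higher and 0 lower. The window with the most reads, at chr11:2650005-2650711, held 54 lactate and 16 ddH2O reads (log2 ratio 2.15, interval 1.39 to 3.12). The window at chr11:2647275-2647897 held 39 and 4 reads (3.27, interval 2.09 to 5.50). The 8 higher windows lay toward the low-coordinate end of the gene, and the last 2 windows, from chr11:2677863 on, held fewer lactate than ddH2O reads (9 and 12, 14 and 22), with intervals that include 0. As 10 of the 12 windows overlapped a neighbour, they share reads. The maternally expressed MEG3 and MEG8 had 0 of 9 windows past 2-fold under the authors' normalization, with their richest windows at 126 and 170 reads (log2 ratio 0.41) and 232 and 333 reads (0.48). H19 had 1 window, at 49 and 122 reads (-0.61, interval -1.14 to -0.14). FTX, a regulator of X inactivation, had 4 higher and 2 lower of 31, and 0 and 8 with the sums of all windows.

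**Figure D2:**
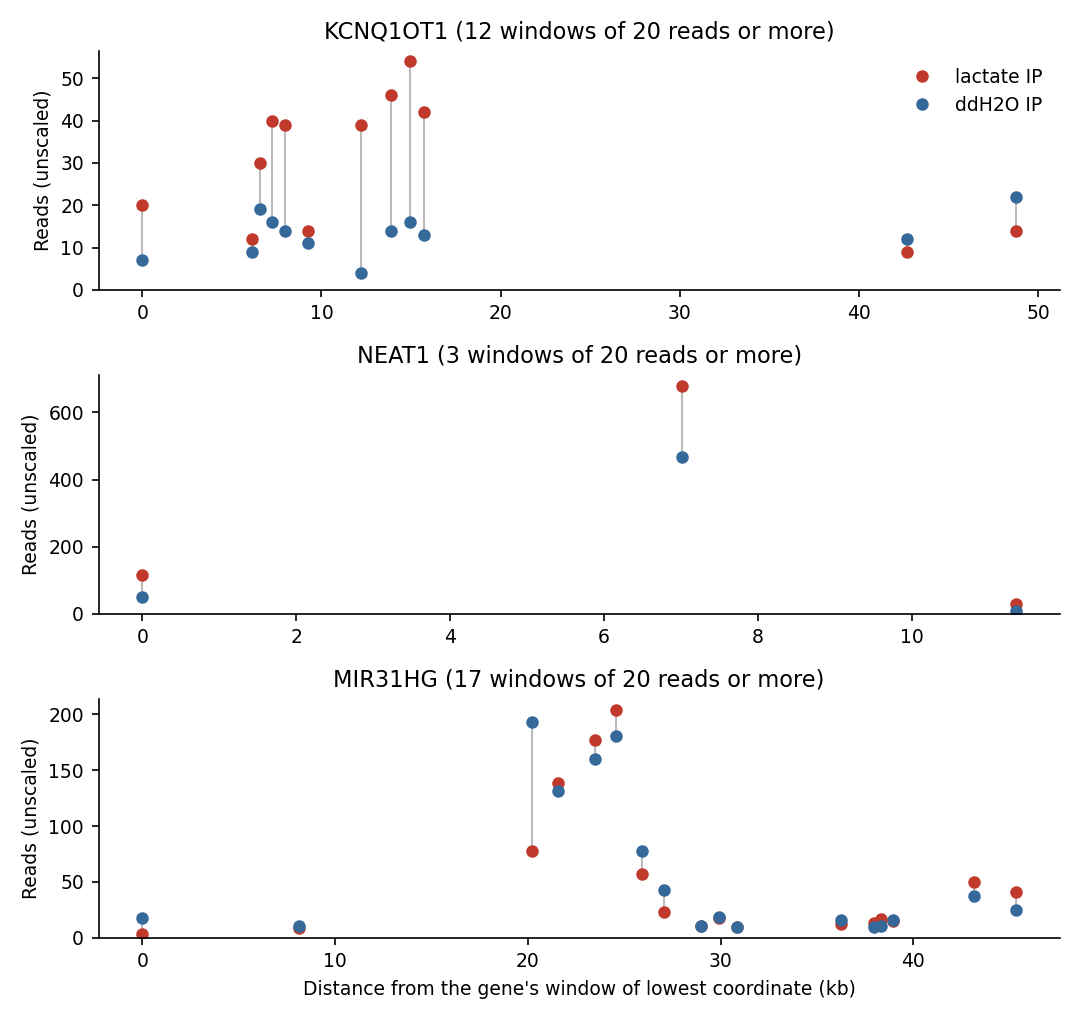
Unscaled reads (y axis) in the lactate and ddH2O IP for each window of 20 reads or more along KCNQ1OT1, NEAT1 and MIR31HG, by distance in kb from the window of lowest coordinate (x axis). In KCNQ1OT1 lactate reads exceed ddH2O reads in 10 of 12 windows, with the 2 exceptions at the far end, and in NEAT1 they exceed them in all 3.

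SnoRNA hosts, spliced RNAs whose introns carry snoRNAs, gave 1 higher (2.78%) and 6 lower (16.7%) of 36 windows, against 7.65% and 18.6% of all merged peaks. Without MT-RNR2 and MALAT1 in the sums the counts were 3 (8.33%) and 6 (16.7%), against 17.0% and 8.77%, and with all windows 1 (2.78%) and 11 (30.6%), against 3.94% and 37.9%. This list holds genes by name and is not the class of 41 windows given above. Of its 26 genes 19 had a peak, and SNHG1, SNHG3, SNHG6 and SNHG12 were among the 7 without. SNHG5 had the most reads, 345 with lactate and 1067 with ddH2O (log2 ratio -0.44, interval -0.62 to -0.27). SNHG8, whose start sequence is printed above, was lower under all 3 scalings in both of its overlapping windows, each with 51 and 208 reads (-1.25, interval -1.74 to -0.82). SNHG14, the long host of the imprinted SNORD clusters, had 4 lower and 0 higher of 14. SNHG19 held 104 and 187 reads (-0.01, interval -0.38 to 0.34), which includes 0. GAS5 had 27 and 19 reads (0.88, and 1.35 without MT-RNR2 and MALAT1 in the sums), and ZFAS1 had 69 and 127 (-0.14).

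MicroRNA hosts, 46 genes with a peak, gave 29 higher (15.3%) and 21 lower (11.1%) of 189 windows, against 7.65% and 18.6% of all merged peaks. Without MT-RNR2 and MALAT1 in the sums the counts were 62 (32.8%) and 15 (7.94%), against 17.0% and 8.77%. With all windows they were 11 (5.82%) and 43 (22.8%), against 3.94% and 37.9%, so that the larger count turned with the scaling. PVT1 led in lactate peaks, with 46 against 66 with ddH2O, and 6 of its 38 windows were higher and 2 lower. The counts were 16 and 2 without MT-RNR2 and MALAT1 in the sums, and 2 and 5 with all windows. Its richest window, the intron peak with the highest lactate fold, held 1183 and 1160 reads (log2 ratio 1.38, interval 1.26 to 1.49). That value was 0.89 without MT-RNR2 and MALAT1 in the sums and passed below 0 with all windows in them. MIR31HG had 21 and 29 peaks, of which 1 in each list lay in an exon. Its windows at chr9:21523728-21524929 and chr9:21525050-21525790 held 177 and 160 and 204 and 181 reads (1.02 and 1.08), while the window at chr9:21520724-21521411 held 78 and 193 (-0.50). These neighbouring windows differed by more than their intervals, whose order no scaling changes. MIR100HG, host of the miR-100, let-7 and miR-125 cluster, had 2 higher and 0 lower of 12, and 1 and 1 with all windows. DLEU2, host of miR-15 and miR-16, had 3 higher and 0 lower of 10, and 2 and 0 with all windows.

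The genes with the most peaks were long and mostly intronic. LINC00511 had 115 over both lists along 288 kb, followed by PVT1 with 112, MIR4435-2HG with 97, LINC01572 with 85 and SLC38A4-AS1 with 76. No peak of SLC38A4-AS1 lay in an exon. MIR4435-2HG had 5 higher and 9 lower of 31 windows (median log2 ratio -0.16), but 9 and 6 without MT-RNR2 and MALAT1 in the sums and 3 and 10 with all windows. SLC38A4-AS1 had 6 and 6 of 23 (-0.28), 8 and 5, and 3 and 8 in the same order. LINC00511 had 4 and 5 of 39 (0.18), but 12 and 0 without MT-RNR2 and MALAT1 in the sums and 2 and 7 with all windows. GMDS-DT had 4 higher and 0 lower of 20, and 1 and 1 with all windows. Over all merged peaks, 7.65% were higher and 18.6% lower under the authors' normalization. These shares were 17.0% and 8.77% without MT-RNR2 and MALAT1 in the sums, and 3.94% and 37.9% with all windows.

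Among lncRNAs described in pancreatic cancer, 18 of 36 symbols had a peak, where LINC00152 is an older symbol of CYTOR and so is no further gene. Of 154 windows 19 were higher (12.3%) and 26 lower (16.9%), against 7.65% and 18.6% of all merged peaks. Without MT-RNR2 and MALAT1 in the sums the counts were 46 (29.9%) and 16 (10.4%), against 17.0% and 8.77%, and with all windows 8 (5.19%) and 38 (24.7%), against 3.94% and 37.9%. HOTAIR, which recruits chromatin modifiers, had 2 overlapping windows at 58 and 135 and 62 and 135 reads (-0.48 and -0.38). AFAP1-AS1 had 0 of 5 windows past 2-fold under the authors' normalization. SBF2-AS1 was lower in its 3 windows (median -1.73), and LINC00261 in its single window, at 1 and 24 reads (-3.54), under all 3 scalings. No peak carried the symbol UCA1, CCAT1, HOTTIP or LINC00673, and whether their loci had peaks under other symbols was not checked. Of the lncRNAs for which m5C has been linked to NSUN2, MALAT1, HOTAIR, H19, NKILA and FOXC2-AS1 all had a peak in the ddH2O list and 3 of 5 in the lactate list. Of their 5 windows of 20 reads or more, only that of MALAT1 was past 2-fold. It was higher (20%, against 7.65% of all merged peaks), and 0 were lower (against 18.6%). With the sums of all windows 0 were higher and 3 lower (60%), against 3.94% and 37.9%. Of cytoplasmic and p53 linked lncRNAs, 8 of 11 had a peak. Of 21 windows 2 were higher (9.52%) and 1 lower (4.76%), against 7.65% and 18.6% of all merged peaks. There were 5 higher (23.8%) and 1 lower (4.76%) without MT-RNR2 and MALAT1 in the sums, against 17.0% and 8.77%, and with all windows 0 were higher and 5 lower (23.8%), against 3.94% and 37.9%. OIP5-AS1 had 0 of 4 windows past 2-fold under all 3 scalings (481 and 790 reads in the richest, log2 ratio 0.48), and NORAD, which binds Pumilio proteins, held 40 and 80 reads (-0.37). Of TERC, RMRP, RPPH1, BCYRN1 and TERRA, the list of telomere and RNase RNAs, 0 of 5 had a peak on a gene with the lncRNA biotype.

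The 5 lower windows with the smallest exact binomial P, taken 1 per gene, all lay in exons of antisense or divergent genes. HOXC-AS3 (ENSG00000251151), antisense in the HOXC cluster, held 14 and 182 reads at chr12:53984575-53984778 (log2 ratio -3.02, interval -4.01 to -2.33). RBM33-DT (ENSG00000216895) held 8 and 137 at chr7:155642734-155643099 (-3.44, interval -4.84 to -2.59), and all 3 of its windows were lower. SCOC-AS1 (ENSG00000196951) held 3 and 85 at chr4:140373094-140373509, inside the coding gene SCOC (-4.09, interval -6.79 to -2.89). These genes were low with lactate in each of their windows of 20 reads or more. RAB30-DT held 58 and 364 in its exon window at chr11:83072627-83072858 (-1.79, interval -2.23 to -1.41), whereas its other 4 windows, all in introns, were within 2-fold under the authors' normalization and 3 of them were higher without MT-RNR2 and MALAT1 in the sums. ENSG00000244380 (chr3:48440384-48440783), inside TMA7 and CCDC51, held 49 and 285 (-1.72, interval -2.22 to -1.31). All of these were lower past 2-fold under all 3 scalings, and with the sums of all windows they ran from -2.55 to -4.46. The lactate list had no peak on any of these 5 windows.

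Higher windows with the smallest P were, beside MALAT1, PVT1 and NEAT1, those of unnamed genes. ENSG00000274422 at chr22:22284946-22287768 held 531 and 368 reads (1.64, interval 1.44 to 1.84), with folds over input of 15.6 and 16.4. It was at 1.39 without MT-RNR2 and MALAT1 in the sums and at 0.50 with all windows. ENSG00000288899 at chr19:57298061-57298401 held 974 and 1200 (1.03, interval 0.90 to 1.15), and was at 0.56 and -0.33 under the other scalings. Its direction thus rested on the scaling. The binomial P compares the reads of 2 libraries and not the conditions.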

How the data were processed

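RIP-seq was done on wild-type PANC-1 cells, with 1 anti-NSUN2 IP and 1 input library per condition, 4 libraries. The authors called peaks for each IP against its own input and deposited, per peak, the fold over input, a −log10 p-value, a −log10 q-value and a q-value column. The submitters' processing notes name fastp 0.20.1, HISAT2 2.1.0, MACS2 2.2.7.1, bedtools 2.29.2, HOMER 4.11.1 and DiffBind, with GRCh38. The merged table was made by the authors with MAnorm and deposited with a normalized density (signal) per IP. Its M and P columns hold the authors' own comparison and were not used.

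Each density is reads plus 1 per kb of a 2000-base window, after a line in the mean log2 density was taken off the log2 ratio. Reads were computed back, and 99.998% of values were whole within 0.05. Windows of 20 reads or more over both IPs were called at 2-fold. With 1 library per condition no test of the treatment was possible, and the two-sided exact binomial P and the intervals cover counting error. Shares have 95% Wilson intervals. The whole depth of the libraries is not known from these files.

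The members and lists were chosen with earlier results of these data known. Genes were named as list members (the best covered of each list), as the 5 windows with the smallest P in each direction and the 10 with the most reads, both at 1 window per gene, the 10 genes with the most peaks and the 5 peaks with the highest fold per list. SNHG8, SNHG14, SNHG19, GAS5, ZFAS1, SBF2-AS1 and LINC00261 were picked from their lists after their values were seen. Of 4744 lncRNA peaks without a symbol, 4724 were found in the gene name table, and 125 had a symbol there that is not the identifier. Starts, coding spans and sequences came from RefSeq (GRCh38.p14). Of 6163 lncRNA peaks whose symbol RefSeq holds, 76.8% lay in the RefSeq span of that symbol. Tables were handled in pandas 2.3.3 and numpy 2.4.6 under Python 3.11.15, intervals came from scipy 1.17.1 and plots from matplotlib 3.10.9, and the scripts were tested on simulated data.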

Additional observations from a re-analysis of the deposited data

How the results depend on the processing

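No paired analysis was possible because there was a single IP library for either treatment, and for the same reason no library could be left out. Other peak cuts changed the lactate and ddH2O values as follows. With a q-value below 0.05, lncRNA peaks were 5.85% and 6.91% of the lists, 43.8% and 44.8% lay in exons, the median fold was 5.03 and 4.43, 64.4% and 24.5% were shared, and 31.4% and 30.5% lay in a coding span. With a fold over input of at least 4, they were 6.29% and 6.82%, with 40.2% and 43.0% in exons and 52.8% and 26.7% shared. Without peaks inside a coding span they were 5.04% and 5.87%, with 28.8% and 29.5% in exons. An overlap of 50% of both peaks left 30.2% and 13.5% shared, and lists of equal length gave 37.7% and 38.2%, with lncRNA peaks at 6.92% of the ddH2O list. Coding spans known to be on the opposite strand held 16.2% and 16.3%, which are too low, since a strand was found for 79.0% of coding genes.

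The counts of windows past 2-fold followed the minimum of reads by construction. Higher and lower windows numbered 552 and 1286 at 10 reads (329 and 771 genes), 57 and 109 at 50 reads (39 and 87 genes), and 1392 and 4260 with no minimum (877 and 2182 genes). Past 4-fold they numbered 43 and 135 (35 and 108 genes), and without overlapping windows 75 and 156 (65 and 142 genes). Outside coding spans 95 genes had a higher window. Reads scaled by the library sums without MT-RNR2 and MALAT1 gave 511 and 241 (278 and 176 genes). The sums with both kept, added after the data were seen, gave 136 and 811 (95 and 521 genes), and turned the log2 ratio of PVT1 to -0.0019 and that of ENSG00000288899 to -0.33. Of the other values of this kind, 17 stayed within their interval or within 1.5 times the count. The shares by reads and by coding span were also added after the data were seen.

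No spread between cultures is known, and most of the 9393 windows were under the minimum of 20 reads.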

Other observations

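Some called peaks had no read in the IP in which they were listed. This held for 49 of 3377 merged lncRNA windows listed with lactate (1.45%) and 143 of 7658 listed with ddH2O (1.87%), beside 1.75% and 2.43% over all merged peaks. Many lncRNA peaks also had the same fold over input: 506 lactate peaks stood at 2.21 (15.0%) and 1394 ddH2O peaks at 1.82 (18.2%).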
